A study of Mus musculus with 6 samples.

Results

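The mouse gene *Esrrb* carried 9 H3K56ac peaks, all inside the gene and all in its 3′ part, and none within 100 kb on either side. H3K56ac is histone H3 acetylated at a lysine, K56, of its core. The 9 peaks are those of the 11106 in the deposited set that shared a base with the body of *Esrrb* or with the 100 kb flanking it. The locus itself was chosen by its number of peaks, so that number and its rank among genes are descriptions and carry no test. The ChIP-seq used mouse embryonic stem cells (mESCs) of the V6.5 line, kept undifferentiated on feeder cells in medium with serum and LIF. Lentivirus had delivered a control shRNA of scrambled sequence to the Scramble cells and one targeting *Sirt6* to the *Sirt6* KD cells. The 6 libraries were 2 H3K56ac and 1 input library from Scramble cells, and 2 H3K56ac and 1 input library from *Sirt6* KD cells. The peaks came as 1 merged set of positions on mm10 with a score of 0 for every peak and no read depth, so no peak can be assigned to a library or a group, heights are unknown, and Scramble and *Sirt6* KD cells were not compared.

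*Esrrb* encodes estrogen-related receptor beta, an orphan nuclear receptor that binds DNA without a steroid hormone and helps to keep mESCs in the naive pluripotent state. The gene is a target of NANOG and is repressed by the WNT effector TCF7L1, and the protein acts together with OCT4, SOX2 and NCOA3 at enhancers. The acetylated lysine lies where the DNA enters and leaves the nucleosome and is found at active promoters and enhancers of mammalian cells. SIRT6 is a deacetylase that removes this mark.

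The DNA under the peaks is shown for the stretches that hold the word bound by ESRRB or the one bound by OCT4. Other words marked beside the OCT4 word are matches in the sequence only. All sequences are the GRCm38 (mm10) reference of the C57BL/6J strain, not the genome of V6.5 cells, read 5′ to 3′ on the plus strand, which is also the strand of *Esrrb*. The first set shows all 5 places in the peaks that hold the 9-letter word bound by ESRRB itself, TCAAGGTCA. It appears as TGACCTTGA where it lies on the minus strand, and the word is in capitals. E1 lies in intron 2 at chr12:86479791-86479871 in the fourth peak. E2 at chr12:86501681-86501761, E3 at chr12:86502023-86502103, E4 at chr12:86503515-86503595 and E5 at chr12:86504483-86504563 all lie in intron 3, in the eighth peak.
E1: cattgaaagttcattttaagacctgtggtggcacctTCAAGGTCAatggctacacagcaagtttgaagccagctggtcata
E2: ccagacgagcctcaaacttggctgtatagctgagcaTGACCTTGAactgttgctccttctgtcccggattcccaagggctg
E3: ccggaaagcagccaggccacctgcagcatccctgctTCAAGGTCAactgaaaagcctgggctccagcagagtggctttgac
E4: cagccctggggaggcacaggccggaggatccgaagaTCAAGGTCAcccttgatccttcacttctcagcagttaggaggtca
E5: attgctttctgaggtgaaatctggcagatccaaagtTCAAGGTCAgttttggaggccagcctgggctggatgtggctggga

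The next 2 stretches hold the only octamer words, ATTTGCAT, in the peaks, the word bound by OCT4. O1 lies in intron 2 at chr12:86470896-86471073 in the third peak, and its capitals mark in order an AP-1 word (TGACTCA), an E-box (CACGTG) and the octamer. O2 lies in intron 3 at chr12:86504799-86504876 in the eighth peak, and its capitals mark a TCF/LEF word (ATCAAAG) followed by the octamer on the minus strand (ATGCAAAT).
O1: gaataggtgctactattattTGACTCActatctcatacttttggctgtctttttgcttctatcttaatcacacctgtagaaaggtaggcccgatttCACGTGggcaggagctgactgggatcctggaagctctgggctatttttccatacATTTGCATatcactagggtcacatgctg
O2: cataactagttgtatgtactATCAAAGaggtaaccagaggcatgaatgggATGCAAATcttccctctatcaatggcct

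The last pair compares the 250 bases before the start of the principal *Esrrb* transcript, which held no peak, with those before an internal start that lay inside the third peak. CpG dinucleotides are in capitals. P2 at chr12:86421394-86421643 is credited to RefSeq (GRCm38.p6) and held 3 CpGs. P3 at chr12:86469867-86470116 was read from the GRCm38 genome and held 8. The 250 bases before the outermost start of the gene, not shown here, had no peak either and held 6. Only the end of P3 lies in the third peak, which begins at base 86470010.
P2: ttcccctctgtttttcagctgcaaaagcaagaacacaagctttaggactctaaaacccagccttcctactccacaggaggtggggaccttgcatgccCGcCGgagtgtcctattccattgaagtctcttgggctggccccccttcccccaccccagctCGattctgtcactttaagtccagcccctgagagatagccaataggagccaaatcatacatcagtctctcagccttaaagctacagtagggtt
P3: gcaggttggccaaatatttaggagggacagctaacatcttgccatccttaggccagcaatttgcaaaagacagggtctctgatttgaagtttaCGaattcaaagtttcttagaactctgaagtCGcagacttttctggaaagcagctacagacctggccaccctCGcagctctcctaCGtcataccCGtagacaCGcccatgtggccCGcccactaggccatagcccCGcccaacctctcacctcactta

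The peaks lay in the 3′ part of the gene, around internal starts. In GENCODE M21, *Esrrb* (ENSMUSG00000021255.17) spans chr12:86361117-86521628 on the plus strand, which is 160512 bp. Its first annotated transcription start site (TSS), the outermost, is that of Esrrb-204. The principal transcript, Esrrb-203, starts 60.5 kb farther on, as does Esrrb-202, and Esrrb-201 starts at 60.8 kb. None of these 4 coding transcripts had a peak at its start. The nearest peak edge was 103458 bp from the start of Esrrb-204, 42931 bp from that of Esrrb-203 and 42692 bp from that of Esrrb-201. The first 64.5% of the gene therefore held no peak base, and another 13951 bp after the last peak held none either.

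Both remaining annotated starts lay inside peaks. The coding transcript Esrrb-206 starts 109 kb from the outermost TSS inside the third peak, and the noncoding transcript Esrrb-205 starts at 143 kb inside the eighth. These are the 2 widest peaks of the gene. RefSeq adds a predicted start at 107 kb, which fell inside the second peak, and predicted starts at 122 and 127 kb, which fell in no peak. Peak positions do not show which of these transcripts the cells used.

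CpG content did not separate the starts with a peak from those without. The observed over expected CpG ratio, counted over 500 bp on either side of the TSS, was 0.283 at the outermost start, 0.661 at that of Esrrb-203 and 0.733 at that of Esrrb-201. It was 0.623 at the start of Esrrb-206 and 0.109 at that of Esrrb-205. A ratio near that of the principal start was thus found at 1 of the starts in a peak, and the lowest ratio of all at the other.

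**Figure D1:**
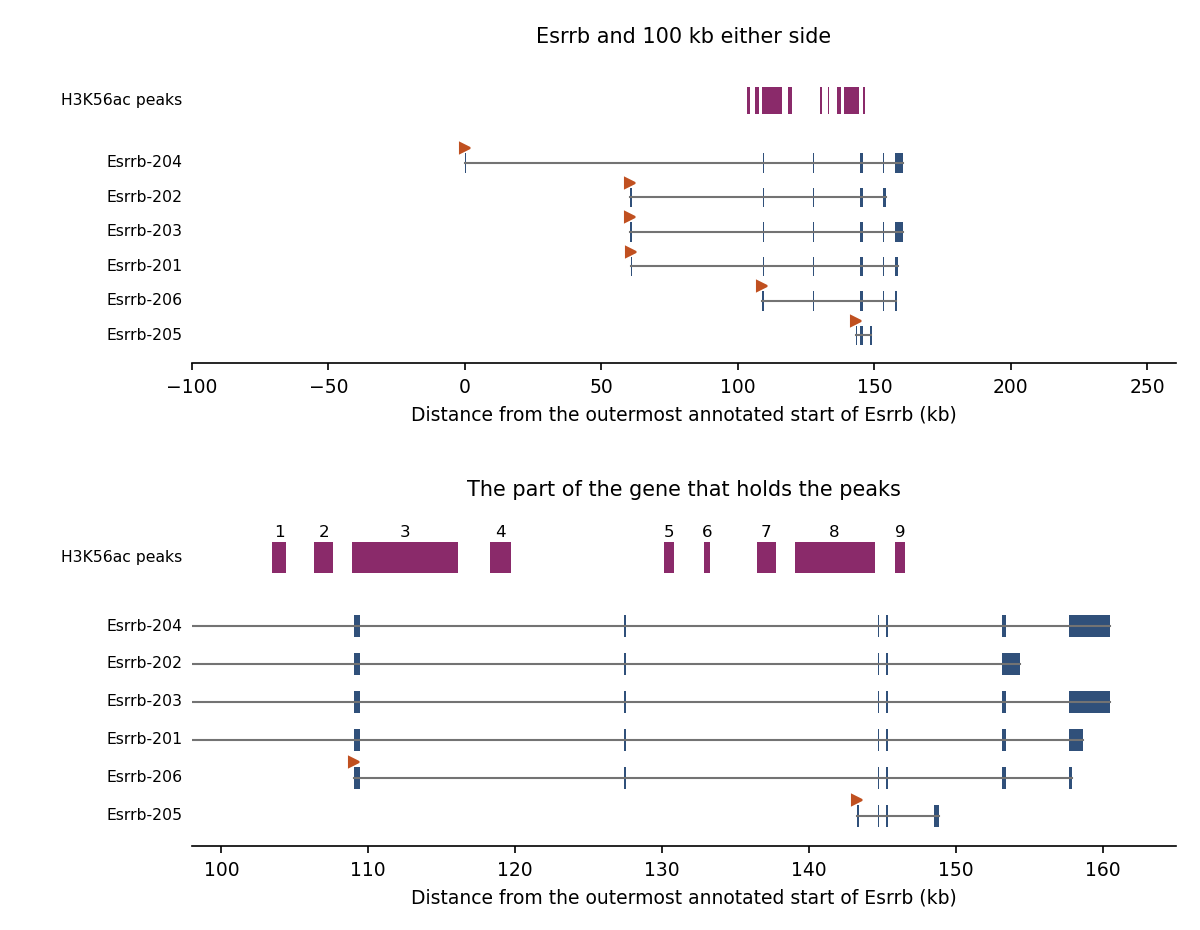
Map of *Esrrb* with 100 kb on either side (upper panel) and of the segment with peaks (lower panel), with distance in kb from the outermost annotated start. Purple boxes are the 9 merged H3K56ac peaks, blue boxes exons (drawn at a minimum width in the upper panel) and orange arrowheads transcript starts; all peaks lie past the 3 upstream coding starts, and the starts of Esrrb-206 and Esrrb-205 lie inside peaks 3 and 8.

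Introns are numbered in Esrrb-203, which has 7 exons, and distances run from the outermost TSS to the midpoint of the peak. Peak 1 (chr12:86464575-86465543) was 969 bp wide and lay in intron 1 at 103942 bp. Peak 2 (chr12:86467454-86468702) was 1249 bp wide and lay in intron 1 at 106961 bp. Relative to the internal start of Esrrb-206 they lay at -5058 and -2039 bp, upstream of it.

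Peak 3 (chr12:86470010-86477235) was the widest, with 7226 bp and its midpoint in intron 2 at 112505 bp. It began in the end of intron 1, took in all 410 bp of exon 2 and ran into intron 2. Of all peaks in the genome, 99.7% were narrower and 29 at least as wide, itself included. Exon 2 was the only exon of Esrrb-203 that any peak touched. Peak 4 (chr12:86479441-86480840) was 1400 bp wide and lay in intron 2 at 119023 bp. A gap of 10405 bp, the largest between the peaks of the gene, followed it and held exon 3.

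The 4 peaks after the gap all lay in intron 3. Peak 5 (chr12:86491246-86491957) was 712 bp wide, with its midpoint at 130484 bp. Peak 6 (chr12:86493960-86494404) was the narrowest, with 445 bp at 133065 bp, and 14.5% of all peaks were narrower still. Peak 7 (chr12:86497560-86498890) was 1331 bp wide at 137108 bp. Relative to the start of the noncoding Esrrb-205, their midpoints lay at -12808, -10227 and -6184 bp, upstream of it.

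Peak 8 (chr12:86500156-86505593) was the second widest, with 5438 bp at 141757 bp, and 99.1% of all peaks were narrower. It covered the first exon of Esrrb-205, 115 bp. Peak 9 (chr12:86506964-86507677) was 714 bp wide and lay in intron 5 at 146203 bp. Introns 4 and 6 held no peak base.

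Peaks 3 and 8 thus dominated the locus and held 65.0% of its 19484 peak bases. Of the 9 *Esrrb* peaks 2 were at least 3 kb wide, against 6.83% of all peaks. The other 7 widths ran from 445 to 1400 bp, inside or near the middle of the genome-wide range, whose median was 913.5 bp (quartiles 572 and 1785). The median *Esrrb* width was 1249 bp, and among the 3795 distal peaks, those over 1 kb from every TSS of a protein-coding gene, the median was 630 bp. The starts of noncoding transcripts of such genes were counted too. Of the 9 *Esrrb* peaks, 7 were distal by this definition, and their median width was 969 bp. Peaks 3 and 8 were not distal, peak 8 because of the start of the noncoding Esrrb-205.

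Introns 2 and 3 were filled with peaks to an extent few other introns were. Peaks covered 44.9% of the 17991 bp of intron 2 and 46.2% of the 17151 bp of intron 3. Introns 0.5 to 2 times as long in the principal transcripts of other genes were covered as much in 8 of 14137 cases for intron 2, or 0.0566%, and in 7 of 14786 for intron 3, or 0.0473%. Intron 1, the longest with 48181 bp, was covered over 4.89% and intron 5 over 9.19%.

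The peaks formed a tight and isolated cluster. From the first to the last base the 9 peaks spanned 43103 bp, or 26.9% of the gene, and covered 45.2% of that span. Gaps between neighbours ran from 1265 to 10405 bp with a median of 1956 bp, whereas the median gap between neighbouring peaks in the genome was 48966 bp. On either side the cluster was bordered by long stretches with no peak. The next peak upstream, 741 bp at the start of *Gpatch2l*, lay 221957 bp before the first, and the next downstream, 621 bp with no protein-coding start within 1 kb, lay 291298 bp after the last. These were the nearest peaks outside the limit of 100 kb. Such distances are not rare: of 11085 gaps, 2218 were as long as the upstream one and 1851 (16.7%) as long as the downstream one.

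Few runs of 9 peaks in the genome were as short as this one. The run length and the span limit were taken from *Esrrb*, itself chosen for its number of peaks, so this rank carries no test. Among all 10944 runs of 9 consecutive peaks, 4 spanned no more than 43103 bp, the *Esrrb* run included, and the median run spanned 986880 bp. The other 3 runs overlapped each other at *Sall1* on chromosome 8, with spans of 38940 to 42536 bp. *Sall1* encodes a zinc finger factor related to the pluripotency factor SALL4.

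When peaks closer than 12 kb were stitched together, a limit chosen after the peaks had been seen, 8605 clusters resulted and 5 held at least 9 peaks. They lay at *Sall1* (12 peaks), *Irf2bpl* on chromosome 12 (10), a histone gene cluster on chromosome 13 (10), *Lasp1*, *Rpl23* and *Cwc25* on chromosome 11 (9) and *Esrrb* (9). These neighbours were named after their values were seen. The *Esrrb* cluster was the most densely covered of the 5, with 45.2% against 29.6% to 33.8%, and 1 of the 3 in which at most 1 protein-coding gene starts. The histone cluster holds 12 gene starts and the *Lasp1* cluster 4.

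The annotated neighbours of *Esrrb* within 100 kb had no peak in that window. They were the 3′ part of *Gpatch2l*, whose single peak lay at its own start, the lincRNA *4732487G21Rik* and the pseudogene *Gm48101*.

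Few genes of similar length held as many peaks. Body peaks were counted over the 2658 other protein-coding genes 0.5 to 2 times as long as *Esrrb*, from 80261 to 320905 bp. Most of them, 1551 or 58.4%, held no peak, 760 held 1 and 215 held 2. The remaining genes held 3 to 9. The 99th percentile was 5, *Fnbp1* and *Rbpj* held 8, and 1 gene, *Tanc1*, reached the 9 of *Esrrb*. This is 0.0376% of the genes (Wilson 95% interval 0.00664% to 0.213%, counting error only). The interval is no test, since *Esrrb* was chosen for its count and the genes are all those of the length band, not a sample. The rank depends on how finely the peaks were divided: with peaks closer than 3 kb joined, *Esrrb* held 3 and 3.91% of the genes held as many. The 5 genes nearest in length, *Srbd1*, *Lcorl*, *Rgs20*, *Ccdc141* and *Peli2*, held 1, 0, 2, 0 and 0.

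**Figure D2:**
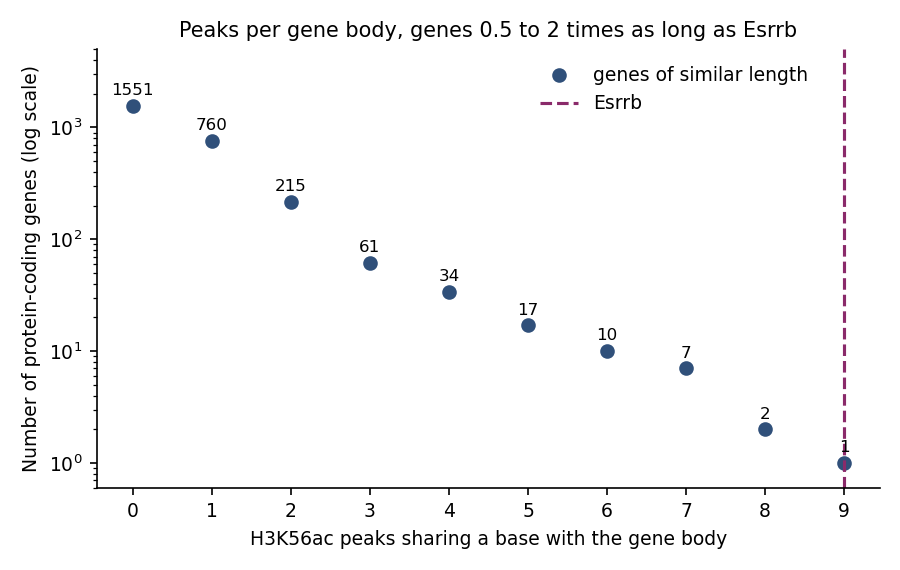
Number of protein-coding genes (log scale) by the number of H3K56ac peaks sharing a base with the gene body, for the 2658 genes 0.5 to 2 times as long as *Esrrb*; the figure over each point is the number of genes. The dashed line marks the 9 peaks of *Esrrb*, a count that 1 gene of similar length reached.

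*Tanc1*, which encodes a scaffold protein of synapses, had as many peaks but a different layout. Its 9 peaks held 7431 bp, or 3.17% of its 234108 bp, whereas the 9 peaks of *Esrrb* covered 12.1%. Only 3 genes of similar length, *Myo10*, *Prrc2b* and *Zmynd8*, were covered as much, or 0.113%. The first peak base of *Tanc1* lay 811 bp from its 5′ end. Both genes had 7 distal peaks, a count that *Tns3* also reached. Over all lengths, 5 of 21938 protein-coding genes had at least 9 body peaks, and the other 3, *Gm20388*, *Fgfr2* and *Etl4*, are annotated over 900934 bp or more.

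The empty 5′ end of *Esrrb* was the less common pattern. Of the 1107 similar-length genes with a peak, 694 had their first peak base within 1 kb of the 5′ end, and the median gene had 0.331% of its length before it. As large a part as in *Esrrb*, 64.5%, came before the first peak in 106 genes, or 9.58%. The 64.5% runs from the outermost start, that of Esrrb-204. In Esrrb-203, which spans 99982 bp, the stretch before the first peak was shorter, 42931 bp. Among the 132 genes with at least 3 peaks, 64.5% or more came before the first peak in 2, *Pced1b* and *Tsc22d1*.

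When the 100 kb flanks were included, the count was less unusual. With their flanks, 70 of the genes of similar length (2.63%) had at least 9 peaks, and the median was 2. The count of *Esrrb* stayed at 9, since its flanks held none.

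None of 7 genes that encode receptors related to ESRRB had a peak. *Esrra* and *Esrrg*, the other estrogen-related receptors, the estrogen receptors *Esr1* and *Esr2*, the glucocorticoid receptor *Nr3c1*, the mineralocorticoid receptor *Nr3c2* and the progesterone receptor *Pgr* had 0 peaks in the body and 0 within 1 kb of a TSS. Of all 21938 protein-coding genes, 36.2% had a body peak and 35.7% a peak within 1 kb of a TSS. A count of 0 of 7 genes allows a share of up to about 42.9%, by an approximation that is loose for so few genes. The count was not tested and is too small to tell whether these receptors differ from other genes. With 100 kb on either side, *Esrra* had 7 peaks and *Esr2* 4, all outside these genes, and the other 5 had 0.

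Of 12 genes for partners and regulators of ESRRB, 8 had a body peak, against 36.2% of all protein-coding genes, and none had more than 2. *Ncoa3*, a coactivator of ESRRB in mESCs, *Nr5a2*, a nuclear receptor that shares much of its DNA word, and *Tcf7l1*, the WNT effector that represses *Esrrb*, had 2 each. *Tcf7l1* is nearly as long as *Esrrb*, with 162877 bp, and its peaks covered 1.18%. *Ncoa1*, *Nr0b1*, *Gsk3b*, *Ctnnb1* and *Kdm1a* had 1 each, and *Ncoa2*, *Nrip1*, *Ppargc1a* and *Ppargc1b* had 0. A peak lay within 1 kb of a TSS in 7 of the 12, against 35.7% of all.

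All 12 other naive pluripotency genes, which also mark the labelled cell type, had a peak within 1 kb of a TSS, against 35.7% of all protein-coding genes. These were *Nanog*, *Pou5f1* (OCT4), *Sox2*, *Klf2*, *Klf4*, *Klf5*, *Tfcp2l1*, *Tbx3*, *Prdm14*, *Sall4*, *Zfp42* and *Stat3*. Their bodies held 0 to 3 peaks with a median of 1, the 3 being those of *Tfcp2l1*. *Prdm14* and *Stat3* held 0, and no gene of the 3 lists reached the 9 of *Esrrb*. The share of the gene covered gave a different order among these genes, all shorter than *Esrrb*. It was at least that of *Esrrb* in 9 of the 12, against 7.99% of all protein-coding genes, with a median of 28.8%, and reached 100% in *Sox2* and *Klf2* with 1 peak each. *Tfcp2l1*, with 57224 bp the longest of them, was covered over 11.7%, close to the 12.1% of *Esrrb*. The lists were written with earlier results of these data known, and their counts carry no test.

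**Figure D3:**
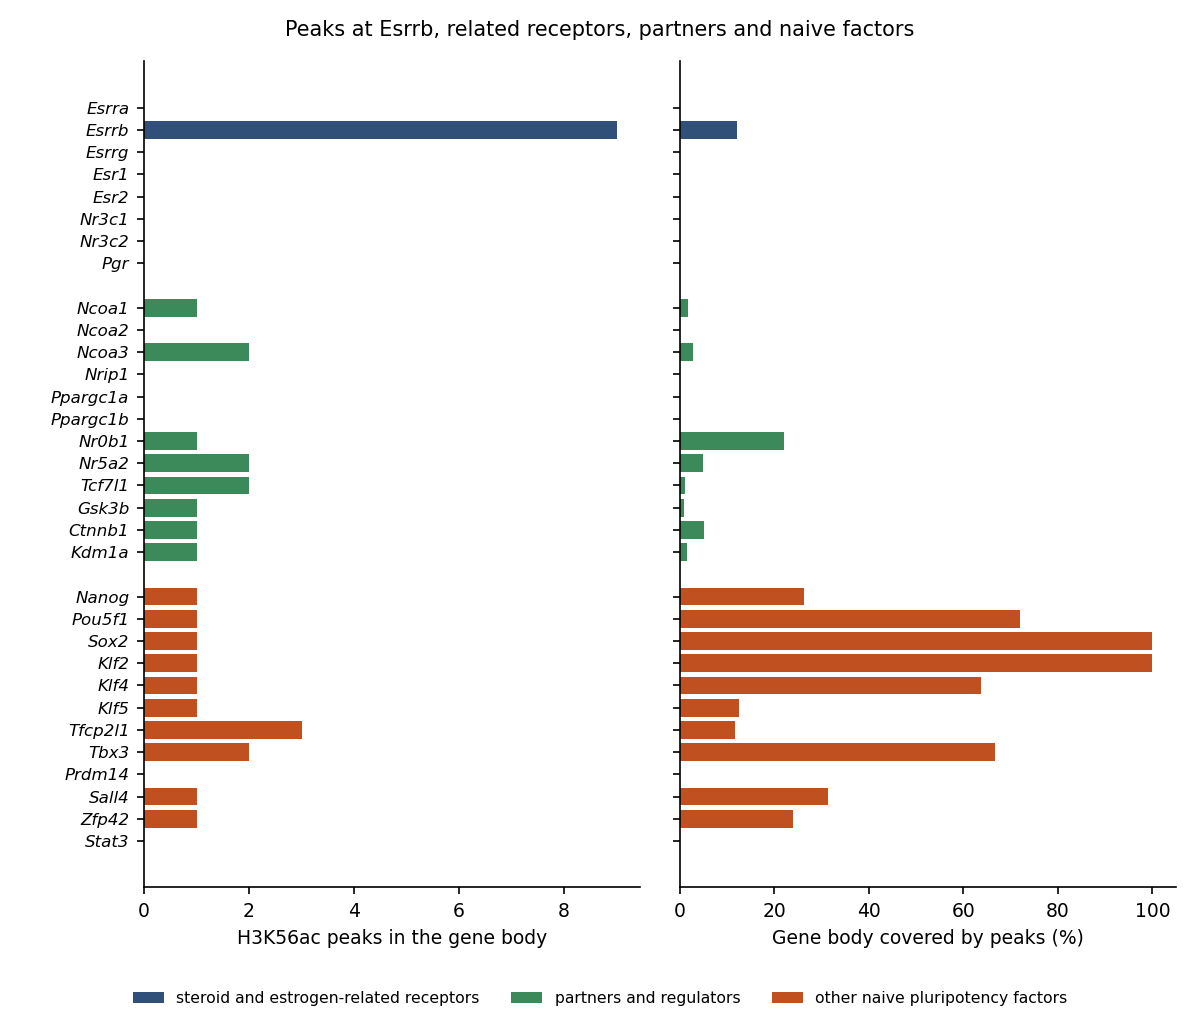
H3K56ac peaks sharing a base with the gene body (left, number) and share of the gene body covered by peaks (right, %) for *Esrrb* and the genes of the 3 lists, 1 bar per gene. *Esrrb* has the most peaks, 9, while the related receptors have none and the short naive genes reach the highest covered shares, up to 100%.

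All 9 peaks were poor in CpG. Their CpG ratio ran from 0.0675 to 0.302 with a median of 0.201, and each lay below the lower quartile of all peaks, 0.305. The median was 0.510 over all peaks and 0.264 over the distal ones. Against distal peaks, whose quartiles were 0.175 and 0.382, 7 of the 9 *Esrrb* peaks lay below the median. Peaks 1, 2, 3, 4 and 8 lay inside those quartiles. The lowest ratios, 0.0675 and 0.0882, were those of peaks 5 and 6 in intron 3, and the highest, 0.302 and 0.292, those of peaks 3 and 4.

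GC content was close to that of other peaks. It ran from 45.6% in peak 6 to 57.7% in peak 5 with a median of 49.6%, between the medians of the distal peaks, 48.4%, and of all peaks, 51.4%. Repeats took up more of the *Esrrb* peaks than of most others: the repeat-masked share had a median of 21.9%, against 9.84% over all and 13.8% over distal peaks. It ran from 0 in peak 9 to 41.0% in peak 4.

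**Figure D4:**
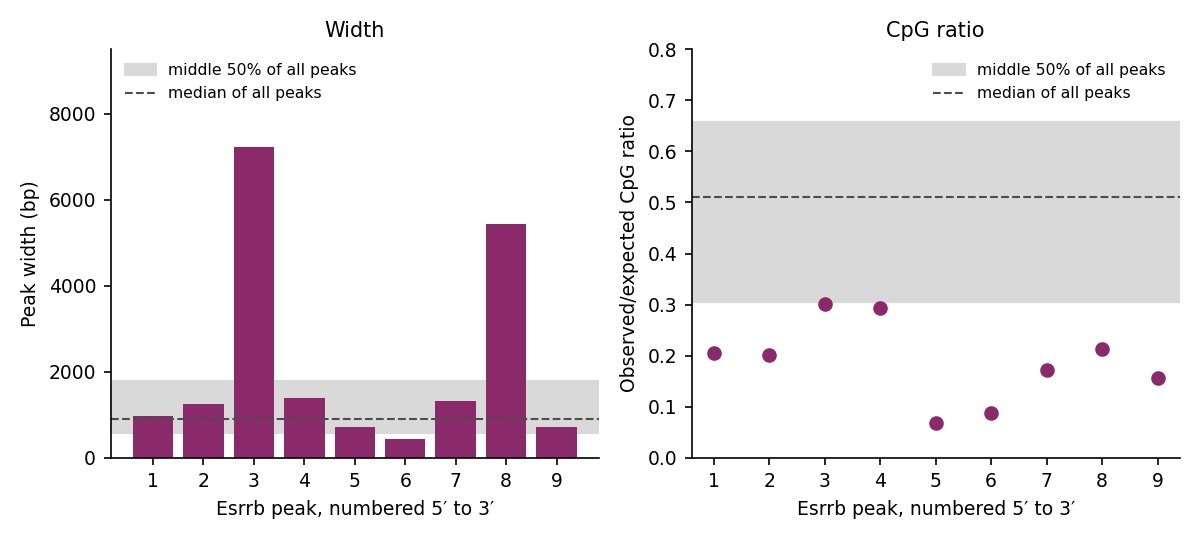
Width in bp (left, bars) and observed over expected CpG ratio (right, points) of the 9 *Esrrb* peaks, numbered 5′ to 3′. The grey band is the middle 50% of all 11106 peaks and the dashed line their median; peaks 3 and 8 are far wider than the band, and all 9 ratios lie below it.

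Words were searched on both strands in the central 400 bp of each peak, and the share of all peaks with the word is given beside each count. The SOX word AACAANG was found in 4 of the 9 peaks (peaks 1, 2, 5 and 8) against 18.0%. The TCF/LEF word ATCAAAG was found in 1, peak 1, against 4.70%. AAGGTCA, the 7-letter core of many nuclear receptor sites that also lies inside the ESRRB word, was found in 2, peaks 8 and 9, against 6.79%. Over distal peaks these 3 shares were higher, 22.9% for SOX, 6.30% for TCF/LEF and 9.12% for AAGGTCA. The remaining words were found in 0 of 9, which allows a share of up to about 33.3%, by an approximation that is loose for so few peaks. The shares over all peaks were 1.01% for the ESRRB word, 1.52% for the octamer, 3.73% for the KLF word CCACACCC, 1.65% for the STAT word TTCCNGGAA, 5.83% for AP-1 and 9.09% for the E-box. These counts of 9 peaks carry no test, and a word in the sequence does not show that the factor was bound.

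Over the whole width, the ESRRB word stood out in 1 peak. It was found in 2 of the 9 peaks, against 3.61% of all peaks, and in 5 places, 1 in peak 4 (E1) and 4 in peak 8 (E2 to E5). Peak 8 was the only 1 of the 11106 peaks with 4 or more of these words, or 0.00900%, and no peak had more. That threshold was chosen after the count had been seen. Width bears on it, since of the 759 peaks at least 3 kb wide 108 (14.2%) held the word at all. When the genome was divided into 486436 tiles of the width of peak 8, 10.9% held the word and 49 (0.0101%) held 4 or more.

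Within the gene and its flanks the ESRRB words were also denser in the peaks than around them, mainly through peak 8. The 360.512 kb window held 16, of which 5 (31.3%) lay in peaks, although peaks took up 5.40% of it. Of those 5, 4 lay in peak 8 and 1 in peak 4, and the other peaks held none. The gene held 13 of the 16, so the flanks, which had no peak, lower the density outside the peaks. That density is one of the window and not of the gene alone. The words numbered 0.257 per kb in the peaks and 0.0323 per kb outside. The density was 0.0301 per kb over all peaks, 0.0455 over distal peaks and 0.0218 over the genome. The words of peak 8 were spread out rather than central, at -1157, -815, 677 and 1645 bp from its midpoint. E1, E2 and E5 lie in repeat-masked sequence, E3 and E4 do not, and E5 straddles the end of the first exon of the noncoding Esrrb-205.

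Peak 3 held no ESRRB word but was rich in E-boxes, the CACGTG word bound by MYC, USF and related factors. It held 6, a count that 5 of the 11106 peaks reached, itself included, and the highest count in any peak was 7. That threshold was the count of peak 3 itself. Width bears on it, since peak 3 was 7226 bp wide and the median peak 913.5 bp. The *Esrrb* peaks together held 7 E-boxes, 0.359 per kb, against 0.239 per kb over all peaks. E-boxes lay in 2 of the 9 peaks, near the 23.6% of all peaks that held the word.

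SOX words were found 11 times, or 0.565 per kb against 0.549 over all peaks. The density was higher over distal peaks, 0.662 per kb, and outside the peaks of the window, 0.633 per kb. They lay in 6 of the 9 peaks, against 43.5% of all peaks. The octamer was found 2 times, in O1 of peak 3 and O2 of peak 8, the 2 widest, or 0.103 per kb against 0.0435 over all peaks and 0.0565 over distal ones. Thus 2 of the 9 peaks held the octamer, against 5.12% of all peaks. In O2 it stands next to a TCF/LEF word, and in O1 it follows an E-box and an AP-1 word. AP-1 words were found 3 times, or 0.154 per kb against 0.161 over all peaks and 0.230 over distal ones. TCF/LEF words were found 4 times, or 0.205 per kb against 0.128 over all peaks and 0.166 over distal ones. The KLF word was found 3 times, or 0.154 per kb against 0.109 over all peaks and 0.128 over distal ones. It lay in 2 of the 9 peaks, peaks 3 and 8, against 12.2% of all peaks. The STAT word was found in none of the peaks over their whole width, and 5.13% of all peaks held it. Peak 6, the narrowest, held none of the words searched.

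**Figure D5:**
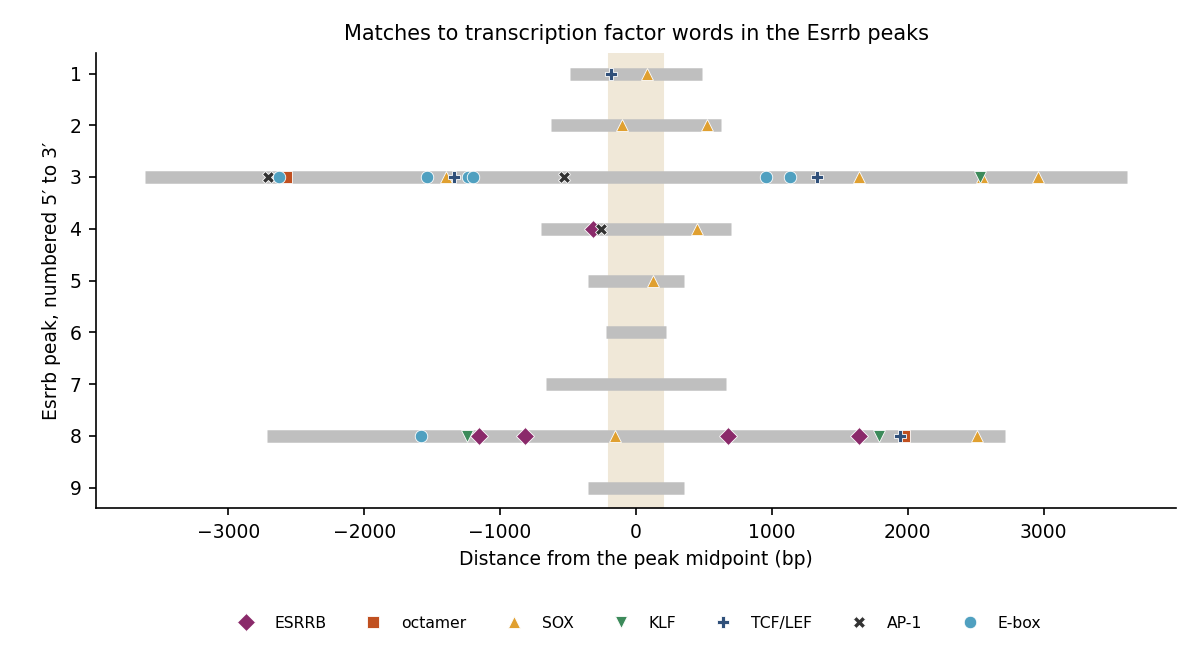
Positions of the matches to 7 factor words in the 9 *Esrrb* peaks, as distance in bp from the midpoint of each peak, with 1 symbol per match and the central 400 bp shaded. The 4 ESRRB words of peak 8 and the 6 E-boxes of peak 3 lie outside the shaded centre.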

How the data were processed

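H3K56ac and input DNA of Scramble and *Sirt6* KD mESCs were sequenced by the study. Per its methods, reads were trimmed, aligned to mm10 with Bowtie keeping uniquely placed reads, freed of duplicates and used for peak calling and merging. Identical repeats may thus lack coverage. The submitters' notes also name FastQC, SAMtools and deepTools. The authors deposited start and end positions of merged peaks, with no score, signal or depth (every score is 0), and neighbouring peaks lay at least 1000 bp apart. Positions carry no depth, and sequencing depth per library was left out of the calculations.

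Positions are printed counted from 1. A peak belonged to a gene or window when it shared 1 base with it. Genes, transcripts and TSS were those of GENCODE M21 on GRCm38, and promoters those of RefSeq. The principal transcript was taken from the APPRIS tag. Genes 0.5 to 2 times as long served for comparison. Named genes were *Esrrb*, its neighbours within 100 kb, 3 lists, similar-length genes with as many peaks and the 5 nearest in length. 1 list member is not reported here. Other genes were named after their values were seen. The members and lists were chosen with earlier results of these data known, and no test was made. Alternatives covered overlap, flanks, length limits, joined or narrow peaks and word windows. Calculations used Python 3.11.15 with numpy 2.4.6, pandas 2.3.3, scipy 1.17.1 and matplotlib 3.10.9, and the functions were tested on simulated data.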

Additional observations from a re-analysis of the deposited data

How the results depend on the processing

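Of 24 alternative values for 8 results, 15 stayed within the limits set for them and 9 moved. Joining peaks closer than 3 kb left 3 peaks in *Esrrb* and 3 in its window, and 3.91% of the similar-length genes then had as many, so the rank rests on how finely the peaks were divided. That share was 0% among the 818 genes in a narrower band of lengths, 0% among the 200 nearest in length and 0% with peaks of at least 500 bp, a limit that also left 11.9% of the gene covered. The ESRRB word was found in 2 peaks over the whole width and in 2 with the 7-letter core in the centre. A flank of 200 kb gave 10 peaks, and the midpoint rule and the basic-tagged transcripts gave 9. No replicate could be left out, since the peaks were merged over all libraries. No paired analysis was possible because the result comes from no test on separate libraries. With no depth or height for a peak, the file limits every value to presence and width.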

Other observations

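The cluster at *Irf2bpl* lay on the same chromosome as *Esrrb*, at chr12:86858629-86918834, with 350951 bp between its first base and the last *Esrrb* peak. It held 10 peaks over 60206 bp and covered 32.5% of that span. *Irf2bpl* encodes a nuclear protein with a RING domain. The cluster at *Sall1*, chr8:89003529-89065062, held 12 peaks over 61534 bp and covered 33.8%. Both were chosen after their values were seen and carry no test.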
